A study of Mus musculus with 7 samples.

Results

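The mitochondrial ribosomal proteins were taken as all probes whose platform gene symbol starts with Mrpl or Mrps followed by a digit. The rule gave 132 of 45128 probes on the array and 76 genes, 48 named for the large subunit (Mrpl) and 28 for the small subunit (Mrps). The rule reads symbols and not levels of expression, but it was chosen with earlier results of these data known. RNA came from prostate tumours of the NPK mouse model, carried as allografts by NU/J mice, an athymic nude strain with few T cells. Mice received RAPPD (4 tumours) or vehicle (3 tumours) every day for 5 days, with harvest on the last day, and each RNA was read on its own Illumina bead array. The labels spell out neither name. In published work on this model RAPPD denotes an mTOR inhibitor, rapamycin, combined with a MEK inhibitor. All 7 tumours share the NPK model and the nude host, and the labels do not say how many donor tumours or mice they came from, so the p-values reflect only how far these samples vary, which may be technical.

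Mitochondria keep a small genome that encodes subunits of the respiratory chain, and they translate it on a ribosome of their own. Its RNAs come from the mitochondrial genome, while all of its proteins are encoded in the nucleus, made in the cytosol and imported. The large subunit forms peptide bonds and attaches to the inner membrane, and the small subunit binds and decodes the mRNA. Some proteins have counterparts in bacterial ribosomes and others occur only in mitochondria. In mammalian cells mTOR signalling is known to promote translation of several nuclear-encoded mitochondrial mRNAs, which a measure of mRNA level such as an array does not read.

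Transcripts of the mitochondrial ribosome were slightly lower in RAPPD tumours across most members, and 13 of the 71 genes that could be tested passed the test, all of them lower. On the log2 scale of normalized intensity, where a difference of -1 is a fall to 50% of the vehicle level, the median RAPPD minus vehicle difference was -0.33 over the members and -0.014 over all 11085 genes tested. The difference was below 0 for 60 of 71 members (84.5%), against 51.2% of all genes. The 13 members called lower at a Benjamini-Hochberg adjusted p under 0.05 (limma, over all genes) were 18.3% of those tested, against 13.1% of all genes. No member was called higher (0 of 71), against 11% of all genes, and 1 member had an unadjusted p under 0.05 upwards. Every RAPPD array lay below every vehicle array for 31 members (43.7%), against 18.8% of all genes, and above every vehicle array for 2 members, against 15.8% of all genes. The share of members called depended on the processing. It was 32.4% with the submitters' processed values (against 13% of all genes), 28.2% with a variance trend (against 14.1%) and 38.0% at an adjusted p under 0.1 (against 17.7%). Other settings lowered it, to 9.86% at an adjusted p under 0.01 (against 6.61%) and to 9.86% without RAPPD 2 (against 9.39%). With a term for the array chip, described below, it was 4.23% (against 5.94%). In whole tumours, fewer cells of a type and less RNA per cell cannot be told apart.

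The standard error of a member ran from 0.13 to 0.30, with a median of 0.17. Of the 71 members, 44 stood between -0.5 and 0, and 3 differed by more than 1 log2 unit. The filter on dim probes, which asked for a signal above the detection limit on at least 3 arrays, did not act through 1 group for nearly all members, because 70 of the 71 were detected on all 7 arrays. The exception was Mrpl57, which met the filter through the 3 vehicle arrays, so its call is no support for the counts and shares that include it. Among genes detected on all 7 arrays, which leaves Mrpl57 out, 17 of 70 members were called lower (24.3%, against 15.0% of all genes). The 5 genes that did not pass the filter were Mrpl19, Mrpl32, Mrpl39, Mrpl45 and Mrps14, and their probes were below the limit on every array.

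**Figure D1:**
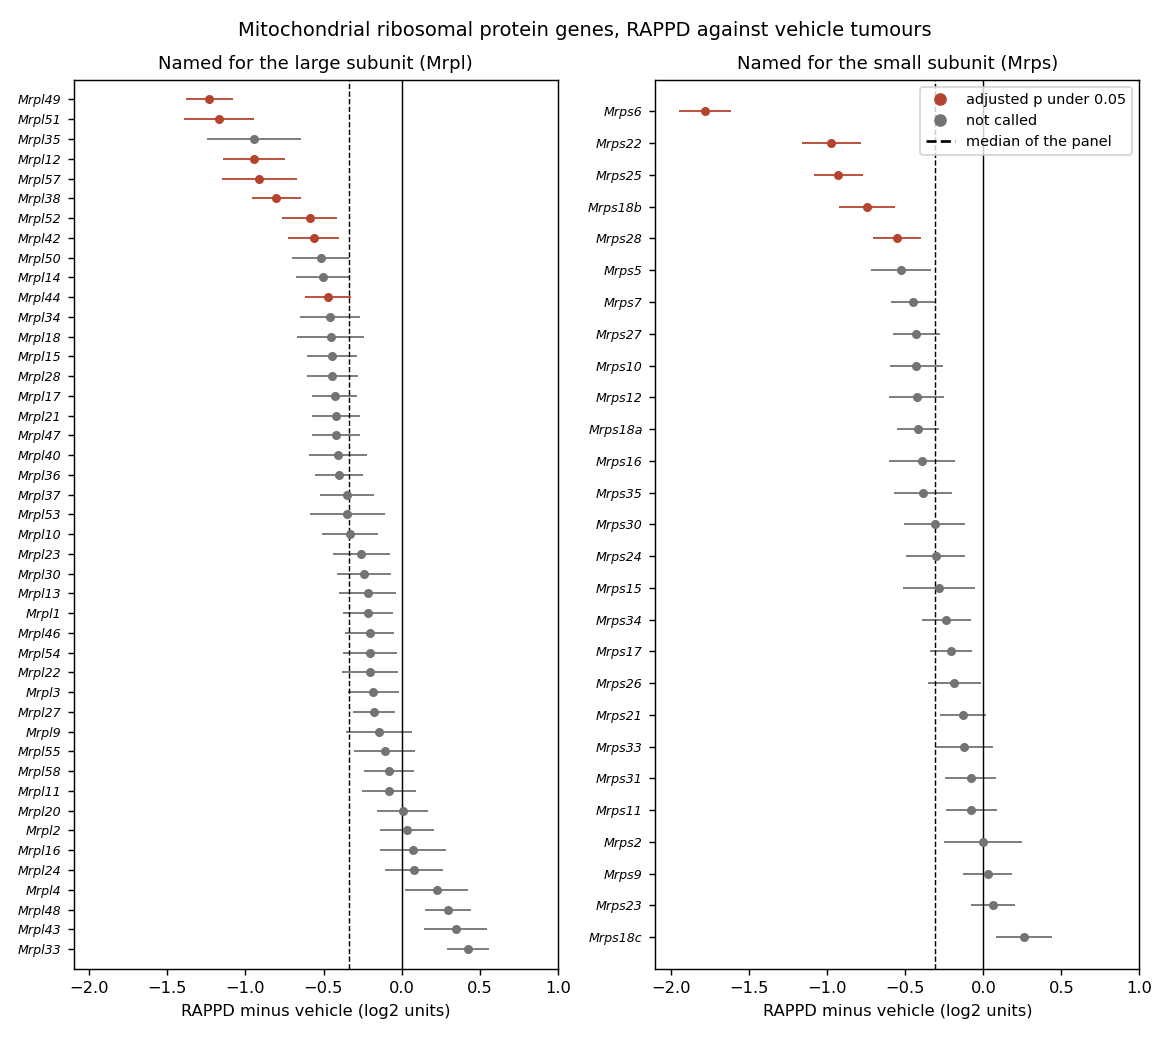
RAPPD minus vehicle difference (log2 units, horizontal axis) with its standard error for each of the 44 Mrpl and 27 Mrps genes tested, ordered within each panel. Red marks the 8 Mrpl and 5 Mrps genes with an adjusted p under 0.05 (limma), grey the others, and the dashed line the panel's median (-0.34 and -0.31).

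Of the 44 large subunit genes tested, 8 fell (18.2%, against 13.1% of all genes) and 0 rose (against 11%). The deepest fall was that of Mrpl49, a protein of the large subunit. Mrpl49 read 8.97, 8.84, 8.70 and 8.93 on RAPPD arrays 1 to 4, against 9.99, 10.05 and 10.24 on vehicle arrays 1 to 3. Each RAPPD array was over 1 log2 unit below each vehicle array, and the difference was -1.23 ± 0.15 (SE, n = 4 and 3, adjusted p = 7.8e-04), or 42.6% of the vehicle level. Its other probes past the filter gave -1.11, -0.96 and -0.53.

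Mrpl51, also of the large subunit, read 5.55, 6.08, 5.22 and 6.01 in RAPPD tumours, against 6.95, 6.85 and 6.86 in vehicle tumours. The RAPPD arrays were spread over 0.41 log2 units (SD) and the vehicle arrays over 0.055, without overlap, at a difference of -1.17 ± 0.22 (adjusted p = 0.0068). The probes of Mrpl51 disagreed, with another dim probe at -0.87 and the remaining one at 0.12. Its difference was -0.22 with the submitters' processed values, -0.64 with the probes averaged and -1.51 without background correction.

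Mrpl12 forms the flexible stalk that recruits translation factors, and in human cells it has also been found to bind the mitochondrial RNA polymerase. It read 10.68, 10.41, 10.47 and 10.66 in RAPPD tumours, against 11.41, 11.90 and 11.18 in vehicle tumours. Vehicle 2 was the highest array and the groups stayed apart, at a difference of -0.94 ± 0.20 (adjusted p = 0.010). Mrpl57, a small protein of the large subunit, read 4.87, 4.48, 4.51 and 5.10 in RAPPD tumours, against 5.24, 6.06 and 5.65 in vehicle tumours. It was above the detection limit on 1 of 4 RAPPD arrays and 3 of 3 vehicle arrays, which bounds how far its fall could be read (-0.91 ± 0.24, adjusted p = 0.025). With the submitters' processed values its difference was -0.11 and not called.

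Mrpl38, which sits in the central protuberance of the large subunit, read 10.82, 10.51, 10.52 and 10.81 in RAPPD tumours, against 11.37, 11.44 and 11.58 in vehicle tumours, a difference of -0.80 ± 0.16 (adjusted p = 0.0075). Its other probe stood at -0.74 (adjusted p = 0.035 over all probes). The remaining called members of the large subunit fell by less. Mrpl52 had 8.23, 8.32, 8.42 and 8.57 in RAPPD tumours, against 8.94, 8.72 and 9.27 in vehicle tumours (-0.59 ± 0.18, adjusted p = 0.042). Mrpl42 fell by 0.56 ± 0.16 on the log2 scale, and Mrpl44, which has a fold related to ribonuclease III, fell by 0.47 ± 0.15 with an adjusted p of 0.0475, just inside the threshold. Mrpl44 overlaps Wdfy1 in the RefSeq table, and Wdfy1 rose by 1.26 ± 0.25. The strand and place of the probes were not compared with the overlapping genes.

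Of the 27 small subunit genes tested, 5 fell (18.5%, against 13.1% of all genes) and 0 rose (against 11%). The deepest fall of the whole family was here. Mrps6 read 8.60, 8.73, 8.50 and 8.43 in RAPPD tumours, against 10.21, 10.20 and 10.62 in vehicle tumours. The groups stood well apart, at a difference of -1.78 ± 0.17 (adjusted p = 2.2e-04), or 29.1% of the vehicle level. Mrps6 belongs to the small subunit and has a bacterial counterpart. The gene overlaps Slc5a3, a transporter of myo-inositol, in the RefSeq table, and the probe of Slc5a3 was above the limit on 1 array.

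Mrps22, a small subunit protein in which mutations cause mitochondrial disease in humans, read 9.52, 9.25, 9.04 and 9.21 in RAPPD tumours, against 10.31, 10.46 and 9.92 in vehicle tumours (-0.97 ± 0.19, adjusted p = 0.0070). Mrps25 read 7.32, 7.27, 6.96 and 7.42 in RAPPD tumours, against 8.12, 8.20 and 8.19 in vehicle tumours, with an SD of 0.044 among the vehicle arrays. Its difference was -0.93 ± 0.16 (adjusted p = 0.0042), and its other probes past the filter gave -0.81 and -0.45. With the submitters' processed values it stood at -0.36. Both genes kept a clear gap between the groups.

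Mrps18b read 10.27, 10.18, 10.30 and 10.10 in RAPPD tumours, against 10.65, 10.94 and 11.28 in vehicle tumours (-0.74 ± 0.18, adjusted p = 0.018). Its other probes past the filter gave -0.60 and -0.37, neither called (adjusted p = 0.067 and 0.19 over all probes). It is 1 of 3 relatives of a single bacterial protein, and the other 2 read differently. Mrps18a stood at -0.42 ± 0.14 (adjusted p = 0.054) with the groups apart, and Mrps18c at 0.26 ± 0.18 (adjusted p = 0.33) with the groups overlapping. Mrps28 read 9.04, 9.36, 9.26 and 9.45 in RAPPD tumours, against 9.82, 9.76 and 9.90 in vehicle tumours (-0.55 ± 0.15, adjusted p = 0.032).

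**Figure D2:**
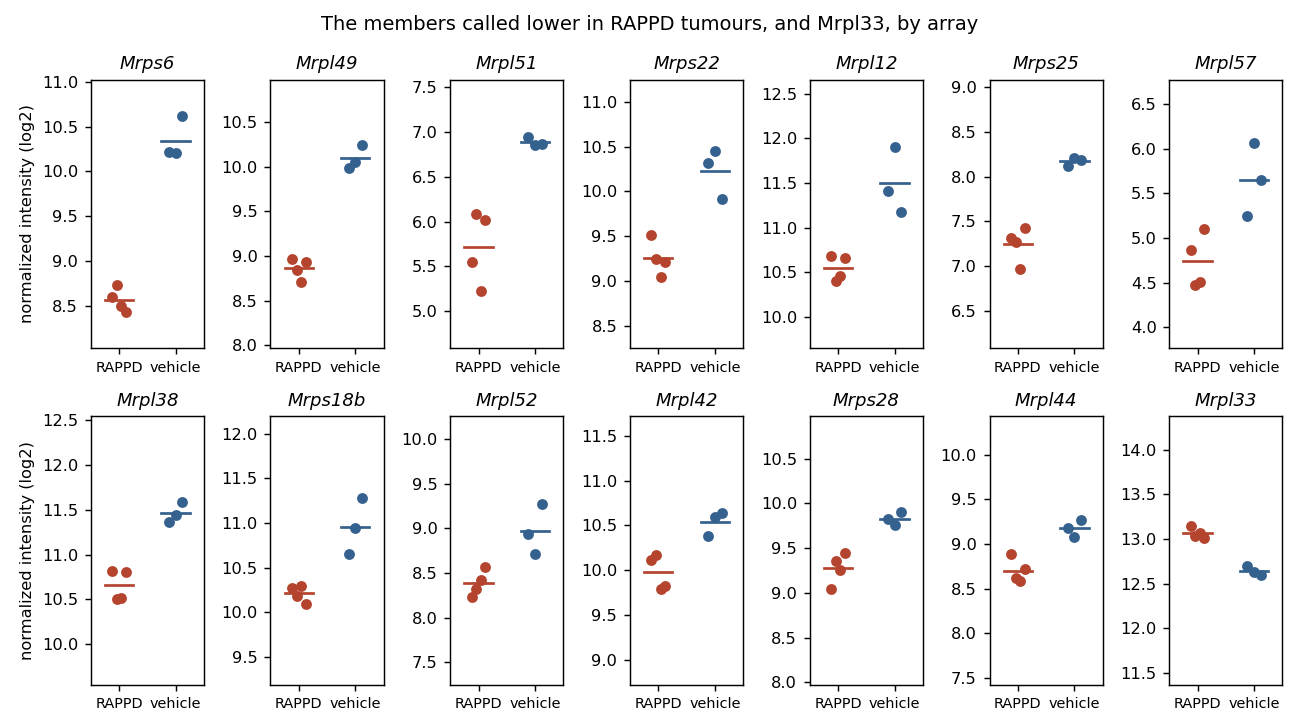
Normalized intensity (log2, vertical axis, 3 log2 units in each panel) on the 4 RAPPD arrays (red) and 3 vehicle arrays (blue) for the 13 members called lower and for Mrpl33, with a line at each group's mean. The groups do not overlap in any panel, and Mrpl33 is the panel with RAPPD above vehicle.

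The calls depended on how the array chip was treated. The 4 RAPPD arrays and vehicle 3 lay on the same chip, and vehicle 1 and vehicle 2 on a chip of their own. With chip as a random block 12 of 71 members were called lower (16.9%, against 11.4% of all genes). With chip as a fixed block, where vehicle 3 is the array that the 4 RAPPD arrays are compared with, 3 of 71 members were called lower (4.23%, against 5.94% of all genes) and 0 higher (against 3.42%). The 3 were Mrps6 (-2.06 ± 0.20, adjusted p = 0.0056), Mrpl49 (-1.38 ± 0.20, adjusted p = 0.017) and Mrps18b (-1.07 ± 0.19, adjusted p = 0.027). The other 10 lost their call, with adjusted p-values of 0.053 to 0.14 and differences of -1.15 (Mrpl51) to -0.56 (Mrpl44). Among them Mrpl38 and Mrpl52 stood further from 0 than without the block, at -0.92 and -0.88, and Mrps22 and Mrpl12 nearer, at -0.66 and -0.63. The median of the members in that fit was -0.24, with 55 of 71 below 0 (77.5%, against 51.4% of all genes). The number of members called lower was 7 without RAPPD 2 (9.86%, against 9.39% of all genes) and 8 without RAPPD 3 (11.3%, against 9.58%). It was 9 without vehicle 1 (12.7%, against 8.67%) and 10 without vehicle 2 (14.1%, against 10.7%). Of these, the Mrpl genes numbered 4 without RAPPD 2, 4 without RAPPD 3, 5 without vehicle 1 and 5 without vehicle 2, and the Mrps genes numbered 3 without RAPPD 2. Mrps6, Mrpl49, Mrpl51, Mrps22, Mrpl12, Mrps25 and Mrpl38 kept their call without any 1 array. Mrps18b lost it without RAPPD 2 and without RAPPD 4, and Mrpl57, Mrpl52, Mrpl42, Mrps28 and Mrpl44 lost it without each of 4 or more arrays.

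A further 18 members (31.0% of the 58 not called) had every RAPPD array below every vehicle array but did not pass the test. Among all genes, called or not, 18.8% had the groups apart in that direction. The 18 members had differences of -0.94 to -0.18 and adjusted p-values of 0.050 to 0.37. Mrpl35, with a bacterial counterpart, had the lowest of these differences. It read 6.39, 5.55, 5.16 and 6.29 in RAPPD tumours, against 6.88, 6.64 and 6.86 in vehicle tumours, and the spread among RAPPD arrays (SD 0.59) left it at -0.94 ± 0.30 with an adjusted p of 0.0503. Mrps7 and Mrps12 of the small subunit stood at -0.45 ± 0.15 and -0.43 ± 0.17. Mrps7 had a second, dimmer probe at -1.19 (adjusted p = 0.0048 over all probes), so its 2 probes differ in whether they pass. Mrpl14, Mrpl50 and Mrps5 stood at -0.51, -0.52 and -0.53, each with an adjusted p from 0.062 to 0.076.

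At the other end, 11 members had a difference above 0. Mrpl33, described here because it was the highest after values were seen, read 13.14, 13.03, 13.07 and 13.01 in RAPPD tumours, against 12.69, 12.63 and 12.60 in vehicle tumours. The groups did not overlap, and the difference of 0.42 ± 0.13 had an adjusted p of 0.0503, just outside the threshold, while a second probe gave 0.43. Mrpl48 also had the groups apart (0.30 ± 0.15, adjusted p = 0.17), and Mrpl43 stood at 0.35 ± 0.20 with overlap.

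The members nearest to 0 were Mrpl20 and Mrpl2 in the large subunit and Mrps2 and Mrps9 in the small subunit. Mrpl20 read 7.52, 7.86, 7.87 and 7.93 in RAPPD tumours, against 7.64, 7.90 and 7.82 in vehicle tumours (0.0065 ± 0.16). Mrpl2, next to the peptidyl transferase centre in bacterial ribosomes, read 10.28, 10.34, 10.01 and 10.15 in RAPPD tumours, against 9.97, 10.45 and 10.05 in vehicle tumours (0.034 ± 0.17). Mrps2 read 7.39, 7.33, 7.32 and 7.52 in RAPPD tumours, against 7.73, 6.74 and 7.71 in vehicle tumours, so that vehicle 2 alone lay below the RAPPD arrays (-0.0015 ± 0.25). Without vehicle 2 the difference of Mrps2 was -0.33, and with chip as a fixed block -0.32, neither called. Mrps9 read 10.92, 10.76, 10.73 and 10.58 in RAPPD tumours, against 10.77, 10.54 and 10.85 in vehicle tumours (0.029 ± 0.16).

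Several members were read by more than 1 probe. Of 24 genes with several probes past the filter, all probes had the same sign in 17, and they lay within 0.5 log2 units of each other in 18. Of the 107 member probes past the filter, 84 were below 0. The exceptions over 1 log2 unit from the probe used were 1 probe of Mrpl51, given above, and 1 of Mrpl15. The probe used for Mrpl15 read 10.66, 10.62, 10.46 and 10.73 in RAPPD tumours, against 10.81, 11.18 and 11.20 in vehicle tumours (-0.45 ± 0.16, adjusted p = 0.076). The diverging probe of Mrpl15 read 6.85, 6.46, 6.17 and 6.48 in RAPPD tumours, against 5.50, 5.12 and 6.29 in vehicle tumours (0.85). The other 4 probes of Mrpl15 past the filter lay at -0.58 to -0.33.

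The large and the small subunit moved alike in size. The median difference was -0.34 over the 44 Mrpl genes and -0.31 over the 27 Mrps genes, and the middle 50% of the differences ran from -0.46 to -0.14 and from -0.44 to -0.13. The share called lower was 18.2% for Mrpl and 18.5% for Mrps genes, against 13.1% of all genes. Mrps18a and Mrps30 carry small subunit names but were placed in the large subunit by structures of the mammalian ribosome. With both moved, the medians were -0.34 over 46 large subunit and -0.31 over 25 small subunit genes, with 8 and 5 called.

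Array by array, each gene was set to its mean over the 7 arrays and the median was taken over the genes of a subunit. For Mrpl this gave -0.089, -0.17, -0.24 and -0.057 in RAPPD tumours, against 0.16, 0.24 and 0.14 in vehicle tumours. For Mrps it gave -0.058, -0.12, -0.23 and -0.10 in RAPPD tumours, against 0.24, 0.21 and 0.14 in vehicle tumours. Both subunits were lowest on RAPPD 3 and every RAPPD array was below every vehicle array. The Mrpl minus Mrps gap ran from -0.051 to 0.047 over RAPPD arrays and from -0.076 to 0.025 over vehicle arrays, so the balance between subunits overlapped between groups. The same medians for the 79 genes of the respiratory chain and ATP synthase ran from -0.091 to 0.019 in RAPPD tumours and from -0.089 to 0.079 in vehicle tumours. For 55 cytosolic ribosomal protein genes they ran from -0.032 to 0.080 in RAPPD tumours and from -0.079 to 0.037 in vehicle tumours, and in both of these sets the groups overlapped.

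**Figure D3:**
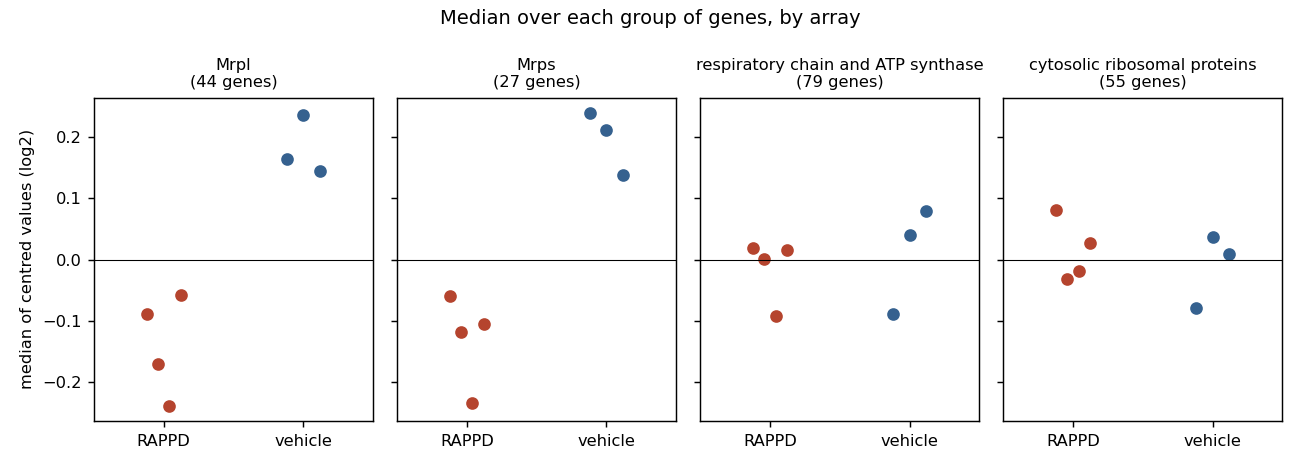
Median over the genes of each set of the log2 value minus that gene's mean over all 7 arrays (vertical axis), for 4 RAPPD (red) and 3 vehicle (blue) arrays. In both mitochondrial ribosome panels the RAPPD points lie below 0 and the vehicle points above, while the groups overlap for the respiratory chain and for cytosolic ribosomal proteins.

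The members were also divided by whether the protein has a counterpart in bacterial ribosomes. Of 43 with a counterpart, 3 fell (7.0%, against 13.1% of all genes), namely Mrps6, Mrpl12 and Mrps18b, with a median of -0.28 and 35 below 0. Of the 28 others, 10 fell (35.7%), with a median of -0.37 and 25 below 0. Among these others were Mrpl49, Mrpl51, Mrps22, Mrps25 and Mrpl38. The 10 also hold Mrpl57, which met the filter through the vehicle arrays. Mrps28 and Mrpl55 are given bacterial counterparts in some structural nomenclature. With those 2 moved, 4 of 45 and 9 of 26 were called. The sets were closer on other measures. Every RAPPD array lay below every vehicle array for 18 of 43 (41.9%) and 13 of 28 (46.4%), against 18.8% of all genes. Falls with an unadjusted p under 0.05 (limma) numbered 17 of 43 and 12 of 28, against 2211 of all 11085 genes. The difference between the sets was not tested, and with chip as a fixed block 2 of 43 and 1 of 28 were called and the order of the medians turned, at -0.26 and -0.18.

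Proteins of the same ribosome whose symbols fall outside the rule were read for 4 genes, 2 of which fell (50%, against 13.1% of all genes). Chchd1 of the small subunit had 11.88, 11.81, 11.99 and 11.98 in RAPPD tumours, against 12.50, 12.40 and 12.67 in vehicle tumours (-0.61 ± 0.15, adjusted p = 0.018). Gadd45gip1 of the large subunit was detected on 0 of 4 RAPPD arrays and fell at least 1.22-fold (adjusted p = 0.027), having passed the filter only through the 3 vehicle arrays, so its call is no support for the list. Dap3, a GTP-binding protein of the small subunit, stood at -0.23 and Ptcd3 at -0.28, both not called. Neither Chchd1 nor Gadd45gip1 was called with chip as a fixed block.

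Among genes that build and serve the ribosome, the shares called lower are read against 13.1% of all genes and those called higher against 11%. Of 20 assembly genes, 4 fell (20%) and 0 rose, with a median of -0.15. The rRNA methyltransferases Mrm3 and Mrm1 fell by 1.19 ± 0.20 and by 0.86 ± 0.20 on the log2 scale, and Noa1, a GTPase of small subunit assembly, fell by 1.05 ± 0.19. Of 19 translation genes, 4 fell (21.1%) and 1 rose (5.26%), with a median of -0.26. The elongation factors Tufm and Tsfm fell by 0.69 ± 0.17 and by 0.67 ± 0.15, and the tRNA-modifying protein Mto1 fell by 0.68 ± 0.14. The gene that rose was Oxa1l, the insertase that takes newly made proteins into the inner membrane. Oxa1l averaged 9.79 ± 0.14 in RAPPD tumours and 8.95 ± 0.090 in vehicle tumours (SD, n = 4 and 3), a difference of 0.84 ± 0.15 (limma adjusted p = 0.0049). With chip as a fixed block 0 of these assembly and translation genes were called in either direction, while their medians were -0.34 and -0.43.

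Of 17 genes of mitochondrial transcription and DNA, 4 fell (23.5%, against 13.1% of all genes) and 0 rose (against 11%). Among the falls were the polymerase Polrmt (-0.69 ± 0.16), the terminator protein Mterf1a (-0.72 ± 0.17) and Trmt10c (-0.91 ± 0.24), a subunit of mitochondrial ribonuclease P. Of 15 mitochondrial aminoacyl-tRNA synthetases, 3 fell (20%) and 0 rose, led by Wars2 (-1.13 ± 0.16). Of 17 import genes, 3 fell (17.6%) and 0 rose, among them Timm8a1 (-1.18 ± 0.18) and Timm9 (-0.84 ± 0.15), chaperones of the space between the membranes. In the respiratory chain and ATP synthase 6 of 79 genes rose (7.59%, against 11% of all genes) and 4 fell (5.06%, against 13.1%). Their median was -0.034. Atp5k, a subunit of the ATP synthase, rose by 1.66 ± 0.26 and Cox7a2l by 0.98 ± 0.16, while Uqcrc1 fell by 0.59 ± 0.15. Among 55 cytosolic ribosomal protein genes 2 rose (3.64%) and 3 fell (5.45%) at a median of 0.048. Many cytosolic ribosomal protein genes have near-identical pseudogenes, so their readings are less certain. With chip as a fixed block 0 genes of the respiratory chain and of the cytosolic ribosome were called in either direction. In that fit 1 transcription gene (5.88%), 1 synthetase (6.67%) and 3 import genes (17.6%) were called lower. Of all genes, 5.94% were called lower in it and 3.42% higher.

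The regulators of mitochondrial gene expression were mixed. Of 11, 4 fell (36.4%, against 13.1% of all genes) and 2 rose (18.2%, against 11%). The coactivator Pprc1, a relative of Ppargc1a, read 9.70, 9.54, 9.47 and 9.67 in RAPPD tumours, against 10.77, 10.80 and 10.71 in vehicle tumours. The arrays of each group lay close together, over 1 log2 unit apart between groups (-1.16 ± 0.14, adjusted p = 7.8e-04), and the call held with chip as a fixed block. Ppargc1a rose by 1.12 ± 0.32, with 6.69, 7.80, 6.61 and 6.90 in RAPPD tumours, against 6.11, 6.18 and 5.37 in vehicle tumours, and lost its call with chip as a fixed block. Gabpa, the DNA-binding subunit of an ETS-family activator of mitochondrial genes, rose by 0.60 ± 0.19 and its partner Gabpb2 fell by 0.60 ± 0.17, and both lost their call in that fit.

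Promoters of the members were read from RefSeq windows of build GRCm38.p6, which run from 250 bases before to 50 bases after the start and were found for 67 of 76 members. The sequences below are the bases just before the start, for the 2 deepest falls in each subunit, for the pair with Ska3 described next, and for Mrpl33 as the highest difference. They are written 5′ to 3′ on the strand of the gene, and capitals mark the ETS motif CCGGAA.
Mrps6, chr16:92058186-92058335, plus strand: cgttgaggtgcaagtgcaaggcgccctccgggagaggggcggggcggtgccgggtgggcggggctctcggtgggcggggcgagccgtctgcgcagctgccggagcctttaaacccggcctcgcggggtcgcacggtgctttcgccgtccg
Mrpl49, chr19:6057756-6057905, minus strand: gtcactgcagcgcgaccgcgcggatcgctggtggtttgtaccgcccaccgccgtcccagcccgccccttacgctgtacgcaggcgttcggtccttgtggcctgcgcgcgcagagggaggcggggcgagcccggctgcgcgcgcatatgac
Mrpl51, chr6:125192050-125192199, plus strand: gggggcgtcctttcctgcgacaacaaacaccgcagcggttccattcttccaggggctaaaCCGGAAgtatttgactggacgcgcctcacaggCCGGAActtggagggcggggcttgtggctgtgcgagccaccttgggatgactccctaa
Mrps22, chr9:98601680-98601829, minus strand: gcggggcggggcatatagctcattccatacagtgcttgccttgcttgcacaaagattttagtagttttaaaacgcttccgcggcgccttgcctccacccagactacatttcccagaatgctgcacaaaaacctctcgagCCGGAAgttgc
Mrpl57, chr14:57826164-57826238, plus strand: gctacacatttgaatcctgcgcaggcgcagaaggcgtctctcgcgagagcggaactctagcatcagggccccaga
Mrpl33, chr5:31613801-31613950, plus strand: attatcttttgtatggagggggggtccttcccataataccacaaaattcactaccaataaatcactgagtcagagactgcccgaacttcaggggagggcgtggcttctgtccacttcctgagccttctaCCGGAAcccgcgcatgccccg
The ETS motif stands 90 and 58 bases before the start of Mrpl51, 11 bases before that of Mrps22 and 21 bases before that of Mrpl33, so it occurs both before genes with falls and before the gene with the highest difference. No such letters stand in the stretches shown for Mrps6, Mrpl49 and Mrpl57.

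Over the full windows and both strands, CCGGAA was found in 39 of 67 member windows (58.2%), against 27.1% of the 8960 windows of genes tested and 15.2% of all 27025 windows. Cytosolic ribosomal protein genes had it in 22 of 46 windows (47.8%). The YY1 motif AAGATGGC was found in 12 (17.9%), against 4.58% of genes tested. The palindromic NRF1 motif was found in 3 (4.48%) and the E-box CACGTG in 5 (7.46%), against 1.95% and 10.1% of genes tested. The 67 windows include members that did not pass the filter, among them Mrpl32 and Mrpl39, which hold the NRF1 motif. Of members tested, it was in 0 of 11 called lower and 1 of 52 not called (1.92%). The E-box was in 0 of 11 and 5 of 52 (9.62%). The NRF1 and E-box motifs read the same on both strands, and none of the 4 contains another. Among members with a window, CCGGAA was in 6 of 11 called lower (54.5%) and in 30 of 52 tested but not called (57.7%), and AAGATGGC in 2 of 11 (18.2%) and 9 of 52 (17.3%). The share with CCGGAA or with AAGATGGC was thus close in both sets, and a match is a description of letters and not of binding.

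Many members start back to back with another gene. A protein-coding gene on the opposite strand started within 1000 bases upstream of 24 of 67 members (35.8%), against 8.57% of the 17492 protein-coding genes with a window. The latter share includes genes that were not tested, and a share over tested genes alone was not computed. In 17 such pairs both genes were tested. The partner was called lower in 3 of 17 and higher in 1 of 17, where 13.1% of all genes were called lower and 11% higher. Its median difference was -0.094. In 2 pairs both genes were called lower, and in both the partner is a gene of mitosis. For the pair of Mrpl57 and Ska3, neither gene would have passed the filter through the RAPPD arrays alone. That pair is therefore no support for joint falls.

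Mrpl57 starts 76 bases from Ska3, which encodes a protein that ties kinetochores to microtubules, and the sequence printed for Mrpl57 is the whole stretch between the starts. Ska3 was detected on 0 of 4 RAPPD arrays and read 7.59, 7.39 and 7.19 in vehicle tumours, at least 5.25-fold lower in RAPPD tumours (adjusted p = 1.5e-05), while Mrpl57 differed by -0.91. Ska3 passed the filter only through the 3 vehicle arrays, which limits what its call can show. RefSeq has Mrpl57 and Ska3 overlapping on opposite strands, and the place of their probes was not compared with the overlap. Mrpl51 starts 614 bases from Ncapd2, a condensin subunit. Ncapd2 read 7.77, 7.28, 7.12 and 7.60 in RAPPD tumours, against 10.84, 10.28 and 10.29 in vehicle tumours (-3.03 ± 0.22, adjusted p = 4.7e-05). Its fall spanned about 3 log2 units, with Mrpl51 at -1.17.

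Other pairs follow. Mrpl40 stood at -0.41 ± 0.19 without a call, and its partner Hira, a histone chaperone, fell by 0.73 ± 0.20, with a second probe at -0.16 whose groups overlapped. Mrpl47 stood at -0.42 ± 0.15 and its partner Ndufb5, a subunit of complex I, at 0.61 ± 0.22, neither called. Mrpl2 stood at 0.034 and its partner Klc4, a kinesin light chain, rose by 0.59 ± 0.18. Mrpl43 and Twnk, the helicase of mitochondrial DNA, stood at 0.35 ± 0.20 and 0.55 ± 0.17, neither called. Mrpl46 and Mrps11, both members, start 42 bases from each other and stood at -0.20 ± 0.16 and -0.078 ± 0.16. In the fit with chip as a fixed block Ska3 and Ncapd2 kept their calls, and Hira and Klc4 did not.

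**Figure D4:**
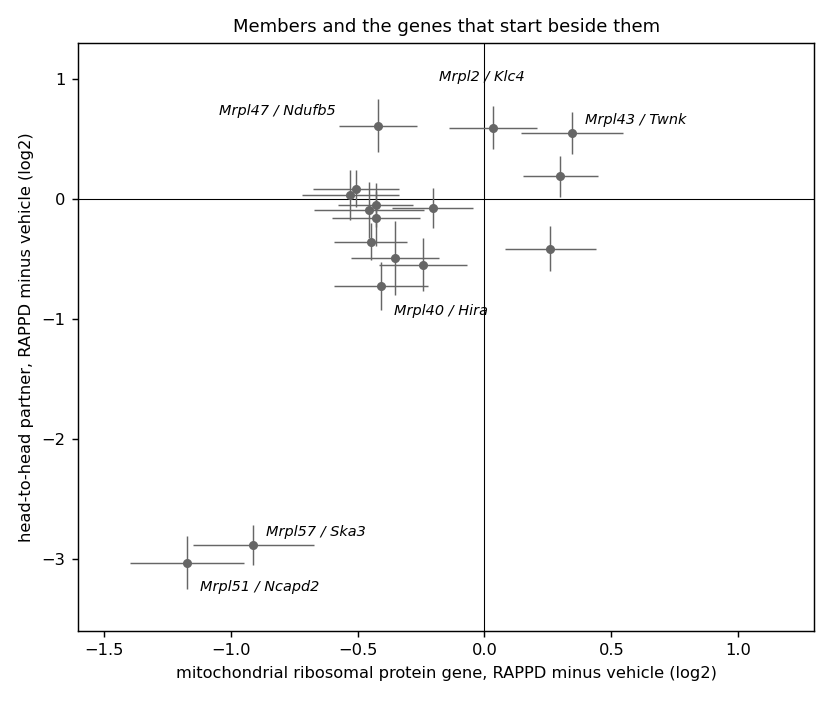
RAPPD minus vehicle difference (log2 units) of a member (horizontal axis) and of the gene that starts back to back with it (vertical axis), with standard errors, for the 17 pairs in which both were tested. The pairs of Mrpl51 with Ncapd2 and of Mrpl57 with Ska3 lie at the lower left, and the partners of the other 15 pairs lie between -0.73 and 0.61.

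Several cell type markers moved with the groups. Of 10 proliferation genes tested of 10 listed, 10 fell, with list means of 6.16 to 6.38 in RAPPD tumours, against 10.37 to 10.81 in vehicle tumours. The luminal epithelial list had 4 of 9 genes tested, with means of 7.79 to 9.51 in RAPPD tumours, against 9.21 to 10.93 in vehicle tumours. Of its defining genes Epcam, Cldn4 and Tmprss2 were not above the limit on any array. The keratin Krt8 fell by 2.16 ± 0.29. Neutrophil genes (9 of 10 tested) had means of 9.87 to 11.85 in RAPPD tumours, against 6.98 to 8.86 in vehicle tumours, with 8 called higher. Red blood cell genes (6 of 7) had means of 10.65 to 12.11 in RAPPD tumours, against 8.96 to 9.65 in vehicle tumours, and fibroblast genes (8 of 9) 10.90 to 12.14 in RAPPD tumours, against 9.52 to 10.67 in vehicle tumours. Skeletal muscle genes (6 of 12) had means of 5.06 to 5.38 in RAPPD tumours, against 4.86 to 11.20 in vehicle tumours, with vehicle 2 alone at 11.20. The groups overlapped for endothelial and macrophage genes. Endothelial genes (7 of 7) had means of 8.42 to 8.88 in RAPPD tumours, against 8.51 to 8.69 in vehicle tumours. Macrophage genes (6 of 8) had means of 9.91 to 10.56 in RAPPD tumours, against 10.22 to 10.93 in vehicle tumours. In the fit with the fixed chip block 2 of 9 neutrophil and 3 of 6 red blood cell genes were called higher. In that fit 0 of 8 fibroblast genes were called higher and 1 lower, 0 of 4 luminal genes lower, and all 10 proliferation genes lower. Without vehicle 2 the median of the members was -0.32, with 61 of 71 below 0. The part of the other cell types in the shift of the members was not tested.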

How the data were processed

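RNA of 7 NPK allograft tumours (4 RAPPD, 3 vehicle) was read on Illumina mouse arrays. The authors deposited a table of background-subtracted probe intensity on a linear scale, without detection p-values, and a table of their processed values that lie on a log2 scale. Per the submitters' processing notes BeadStudio and lumi were used, with versions and roles not given in the sources used here. Here each array's intensities were corrected by normexp with the background SD taken from its negative intensities, given an offset of 16, quantile-normalized and set to log2. A probe counted as detected above the upper 0.05 tail of that background and was kept if detected on at least 3 arrays, which left 21249 of 45128 probes, and the brightest stood for a gene. limma 3.58.1 in R 4.3.3 compared RAPPD with vehicle over 11085 genes, two-sided, with Benjamini-Hochberg adjustment at 0.05. statmod 1.5.0 estimated the correlation within a chip (0.332). The number of arrays limits the precision. Of the probes, 34776 have 1 gene symbol, 18 several and 10334 none. Values per array are given for up to 6 called members with the largest falls and the 2 smallest differences in each subunit and for members with a probe over 1 log2 unit away, and up to 3 called genes per direction with the smallest p are named in each other list. Mrpl33, Mrpl35 and the gene pairs were chosen after their values were seen. Members, lists and classes were chosen with earlier results of these data known. The procedure was tested on simulated data.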

Additional observations from a re-analysis of the deposited data

Results flagged for a closer look

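In 5 of 71 members 1 of the 4 RAPPD arrays stood far from the other 3 on the log2 scale, where chance flags about 1 in 20 groups. Mrps24 read 12.42 on RAPPD 3, against 12.56 to 12.58 on the others. Mrpl13 read 12.37 on RAPPD 4, against 12.13 to 12.17. Mrps31 read 10.72 on RAPPD 1, against 10.32 to 10.36. Mrpl20, 1 of the members nearest to 0, read 7.52 on RAPPD 1, against 7.86 to 7.93. Mrpl16 read 8.07 on RAPPD 3, against 8.37 to 8.42. None of the 5 was called.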

How the results depend on the processing

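The fall of Mrps6 and of Mrpl49 was called in all 21 alternatives, from -2.06 to -1.27 and from -1.38 to -0.88, and no result changed sign past the threshold. With the submitters' processed values 14 Mrpl and 9 Mrps genes were called lower (together 32.4% of members, against 13% of all genes), at medians of -0.21 and -0.23. With chip as a fixed block 659 genes were called lower and 379 higher, among them 1 Mrpl and 2 Mrps lower, with an Mrpl median of -0.24. At an adjusted p under 0.01 the counts were 733 lower and 508 higher, with 4 Mrpl and 3 Mrps lower, and under 0.1 17 Mrpl and 10 Mrps were lower. A variance trend gave 13 Mrpl lower, no background correction an Mrps median of -0.39, and no filter an Mrpl median of -0.25. Mrpl33 was the 1 Mrpl gene called higher with an offset of 50, median scaling, the processed values, a variance trend, no filter, detection on all 7 arrays, the probes of each gene averaged and an adjusted p under 0.1. Leaving out each replicate gave 961 to 1558 genes lower and 755 to 1292 higher, 4 to 8 Mrpl and 3 to 5 Mrps lower, and medians of -0.38 to -0.25 for Mrpl and -0.39 to -0.27 for Mrps. The cause was not tested. No paired analysis was possible because replicate numbers were given only in accession order. Signal over background limits Mrpl57 and the 5 genes below the limit. The probes used for Mrpl51 and Mrpl35 were also dim. On RAPPD 3 they had linear intensities of 21.2 and 19.5, against a detection limit of 15.4.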
